A study of Mus musculus with 14 samples.

Results

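Serpins are proteins that inhibit proteases, and 8 serpin genes are described here across 5 groups of mouse CD4+ T cells: Serpina3f, Serpina3g, Serpinb1a, Serpinb5, Serpinb6a, Serpinb6b, Serpinb9 and Serpinf1. They are the rows of the count table with those gene names, 8 of 62 rows whose name begins with Serpin and of 22048 genes in all. The names were chosen by measured levels in these libraries, and which comparison weighed most was not recorded, so every fold change and adjusted p-value given for them sets a difference against the spread between libraries and is not independent evidence that serpins stand apart. All 14 libraries came from C57BL/6 IFN-g-YFP reporter mice, in which a yellow fluorescent protein marks cells that express interferon-gamma. The naive group (n = 3) held spleen and peripheral lymph node cells sorted as CD4+ CD44- CD62L+ and not cultured. For the other groups, CD4+ T cells were enriched, not sorted as naive, from the same organs and kept for 4 days under T helper 1 conditions: 1 µg/ml each of anti-CD28 and anti-CD3 bound to the plate, 10 ng/ml each of IL-12 and IL-2, and 10 µg/ml of anti-IL4. The cultures also received 1 µM of SGC0649 or of SGC0946 and were then sorted for CD4+ cells without reporter signal (YFPneg, n = 2 with SGC0649 and n = 3 with SGC0946) or with it (YFPpos, n = 3 with each compound). SGC0946 is an inhibitor of the histone methyltransferase DOT1L, and SGC0649 is the related compound used as its control. No cultured group without a compound was analysed here, and replicate 3 of the YFPneg SGC0649 group was not analysed here. Which mouse or culture each library came from is not given per library beyond the word biological replicates, so the tests measure the spread between these libraries.

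A serpin holds out a flexible loop as bait, and when a protease cuts it the serpin changes shape and traps the enzyme in a dead complex. Most clade B serpins lack a secretion signal and work inside the cell, where they are known for protecting lymphocytes and myeloid cells from proteases that leak out of their own granules or lysosomes. A few serpins have lost inhibitory function and act in other ways. Among the 8, Serpinb9 is the inhibitor of granzyme B in mouse cytotoxic cells, Serpinb6a and its close relative Serpinb6b are intracellular clade B serpins, and Serpinb1a inhibits neutrophil serine proteases. Serpina3g inhibits lysosomal cysteine cathepsins inside T cells, and Serpina3f is its neighbour in the same gene cluster. Serpinb5, or maspin, is a clade B serpin best known from epithelia that does not act as a classical protease inhibitor. Serpinf1 encodes the secreted pigment epithelium-derived factor, which likewise lacks protease inhibitory activity.

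In the GRCm38 annotation (GENCODE release 21), 4 of the 8 genes lie on chromosome 13: Serpinb1a at 32842092 to 32851185 on the minus strand, Serpinb6b at 32965209 to 32979067 on the plus strand, Serpinb9 at 33003250 to 33017957 on the plus strand and Serpinb6a at 33917918 to 34002794 on the minus strand. Serpina3f (104214544 to 104221129) and Serpina3g (104236245 to 104241939) are on the plus strand of chromosome 12, with 15115 bases between them. Serpinb5 is on chromosome 1 (106861173 to 106883348, plus strand) and Serpinf1 on chromosome 11 (75409769 to 75422701, minus strand). The coding sequences of Serpina3f and Serpina3g were 87.4% identical over the aligned bases, those of Serpinb6a and Serpinb6b 86.4%, and those of Serpinb9 and Serpinb6b 69.1%. Reads from near-identical stretches can be split between copies or dropped: 16% of the 50-base windows of the Serpina3g transcript and 10.7% of those of Serpina3f also occurred in another gene, against 3.42% or less for each of the other 6 members. The values for Serpina3f and Serpina3g are therefore uncertain where the counting could not tell these copies apart.

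RefSeq windows of 250 bases upstream of an annotated start (GRCm38.p6) were found for 7 of the 8 members, all but Serpinb1a. They were 9 windows in all, because Serpina3f and Serpinb6a each had a further start, whose window is not shown. Of these, 4 windows are shown because they hold a match to a motif of the factors that cytokines activate in T cells, and because the Serpina3f and Serpina3g windows can be compared letter by letter. Capitals mark TTCNNNGAA, the motif bound by STAT proteins (GAS), or GAAA, any 2 bases and GAAA, the type bound by interferon regulatory factors (ISRE-type), searched on both strands. In the Serpinb6a window the matches to both motifs overlap and form 1 run of capitals. The motifs were chosen after the sequences had been seen. For Serpinb9 the RefSeq start used here lies inside the GENCODE span of the gene.
Serpina3f, chr12:104214294-104214543, plus strand: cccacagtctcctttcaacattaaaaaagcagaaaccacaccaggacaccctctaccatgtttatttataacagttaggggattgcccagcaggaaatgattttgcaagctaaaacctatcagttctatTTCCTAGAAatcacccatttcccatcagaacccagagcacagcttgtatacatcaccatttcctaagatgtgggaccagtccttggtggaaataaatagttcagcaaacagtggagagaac
Serpina3g, chr12:104235897-104236146, plus strand: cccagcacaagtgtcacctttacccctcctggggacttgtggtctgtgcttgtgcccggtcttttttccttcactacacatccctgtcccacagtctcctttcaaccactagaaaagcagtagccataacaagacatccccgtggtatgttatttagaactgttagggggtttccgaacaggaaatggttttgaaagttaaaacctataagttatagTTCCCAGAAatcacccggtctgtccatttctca
Serpinb6a, chr13:34002795-34003044, minus strand: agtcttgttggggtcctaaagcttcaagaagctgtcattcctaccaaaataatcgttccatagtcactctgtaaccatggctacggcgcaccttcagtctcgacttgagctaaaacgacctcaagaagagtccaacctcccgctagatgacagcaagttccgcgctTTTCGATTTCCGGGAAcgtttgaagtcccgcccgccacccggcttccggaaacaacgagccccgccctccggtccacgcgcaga
Serpinb9, chr13:33004291-33004540, plus strand: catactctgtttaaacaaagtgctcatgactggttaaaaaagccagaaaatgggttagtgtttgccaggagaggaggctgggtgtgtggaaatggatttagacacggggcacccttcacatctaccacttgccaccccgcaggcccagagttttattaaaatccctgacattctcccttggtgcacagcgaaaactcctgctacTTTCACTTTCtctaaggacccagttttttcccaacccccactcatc
In the windows shown, the GAS match began 121 bases before the Serpina3f start (TTCCTAGAA), 33 before the Serpina3g start (TTCCCAGAA) and 77 before the Serpinb6a start (TTCCGGGAA). From the further Serpina3f start the same match lay 210 bases upstream. The window of the further Serpinb6a start (chr13:33936084-33936333) held neither the GAS nor the ISRE-type motif. Of 32851 such windows in the RefSeq table, 7.02% held TTCNNNGAA. The ISRE-type match began 46 bases before the Serpinb9 start and 84 before that of Serpinb6a, and 2.98% of all windows held that motif. Serpinb5 had 1 match to the AP-1 motif TGANTCA, 140 bases upstream, a motif found in 6.75% of all windows. The T-box motif AGGTGTGA (in 1.12% of all windows) was in none of the members' windows. The Serpina3f and Serpina3g windows aligned over 152 bases and were identical at 82.9% of them. A match is a stretch of letters and not evidence of binding, and no match says only that the letters are not in the window.

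Levels are given as counts per 1000000 counts of the library (CPM), scaled by the trimmed mean of M-values (TMM) of edgeR. Serpinb9 stood at 28.7, 27.8 and 26.6 CPM in the naive libraries, at 111 and 106 in YFPneg SGC0649 and at 158, 154 and 217 in YFPpos SGC0649. With SGC0946 it was at 103, 76.5 and 95.9 CPM in YFPneg and at 118, 85.8 and 119 in YFPpos cells. The 3 YFPpos SGC0649 libraries were the highest of all 14, and the 3 naive libraries the lowest. Serpinb6b was at 14.4, 15.3 and 11.8 CPM in naive cells, 52.9 and 50.1 in YFPneg SGC0649, 123, 116 and 148 in YFPpos SGC0649, 67.9, 57.9 and 76.8 in YFPneg SGC0946, and 112, 94.3 and 103 in YFPpos SGC0946. For Serpinb6b, too, no other group reached the YFPpos SGC0649 libraries.

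The other members were highest in YFPpos SGC0946. Serpinb6a was at 15.2, 15.2 and 16.3 CPM in naive cells, 38.0 and 26.2 in YFPneg SGC0649, 67.2, 51.6 and 40.7 in YFPpos SGC0649, 60.9, 59.8 and 37.4 in YFPneg SGC0946, and 97.4, 103 and 96.4 in YFPpos SGC0946. The last 3 libraries lay above all others, and YFPneg SGC0946 overlapped both SGC0649 groups. Serpinb1a was read 3 times in the 3 naive libraries together (0.0599, 0 and 0.113 CPM). It was at 1.93 and 3.08 CPM in YFPneg SGC0649, 9.68, 9.08 and 7.70 in YFPpos SGC0649, 4.75, 6.61 and 5.44 in YFPneg SGC0946, and 13, 15.5 and 17.5 in YFPpos SGC0946. No 2 of the 5 groups overlapped for this gene.

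Serpina3g was at 0.659, 1.18 and 1.36 CPM in naive cells, 32.1 and 28.9 in YFPneg SGC0649, 40.4, 39.6 and 35.0 in YFPpos SGC0649, 27.9, 22.6 and 14.2 in YFPneg SGC0946, and 59.7, 59.7 and 52.0 in YFPpos SGC0946. The cultured groups did not overlap, and YFPneg SGC0946 was the lowest of them. Its neighbour Serpina3f was at 0, 0.0623 and 0.227 CPM in naive cells, 12.7 and 11.8 in YFPneg SGC0649, 14.2, 12.8 and 9.56 in YFPpos SGC0649, 15.2, 16 and 10.8 in YFPneg SGC0946, and 30.9, 38.7 and 27.5 in YFPpos SGC0946. Here the YFPpos SGC0946 libraries stood apart and the other 3 cultured groups overlapped.

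Serpinb5 and Serpinf1, the members without classical inhibitory function, had no read in any naive library. Serpinb5 was at 21.2 and 11.4 CPM in YFPneg SGC0649, 35.9, 23.4 and 4.98 in YFPpos SGC0649, 42.8, 44.8 and 40.6 in YFPneg SGC0946, and 50.6, 64.8 and 46.1 in YFPpos SGC0946. The 6 SGC0946 libraries all lay above the 5 SGC0649 libraries, and YFPpos SGC0649 spanned a 7.22-fold range. Serpinf1 was at 3.40 and 2.0 CPM in YFPneg SGC0649, 9.29, 7.55 and 3.33 in YFPpos SGC0649, 15.5, 17.7 and 9.41 in YFPneg SGC0946, and 31.4, 38.5 and 31.1 in YFPpos SGC0946. Its SGC0946 libraries also lay above every SGC0649 library, by a narrow margin between 9.41 and 9.29 CPM. The share of all tested genes that separate across several groups in such ways is not given here. Nothing is therefore read from these separations for the members above.

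**Figure D1:**
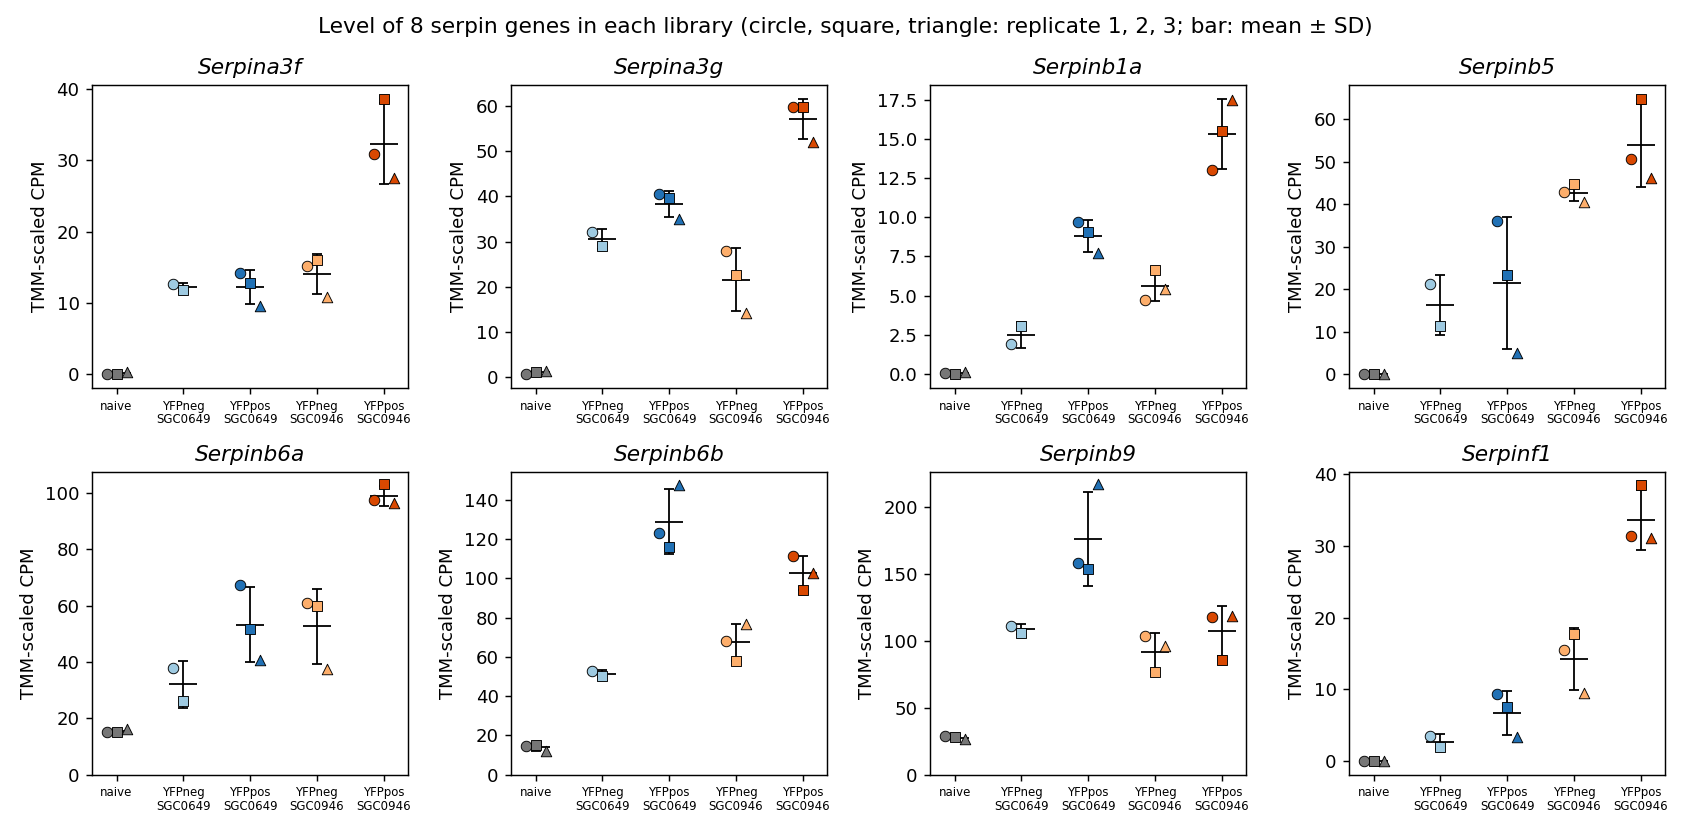
TMM-scaled CPM (vertical axis, from 0) of each serpin gene in each library, by group (horizontal axis). Symbols are replicates 1, 2 and 3, the bar is the mean and the whiskers 1 SD (n = 2 for YFPneg SGC0649, n = 3 for the others). Serpinb6b and Serpinb9 peak in YFPpos SGC0649, at up to 148 and 217 CPM, and the other 6 genes in YFPpos SGC0946.

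Levels of different genes were compared as CPM per 1000 exon bases (CPM per kb), counting all annotated exons of a gene together. For Serpinb6a these exons came to 5409 bases, but its transcript with the longest coding sequence held only 1455 windows of 50 bases. The same 2 numbers were 2262 and 2144 for Serpinb6b and 3494 and 3423 for Serpinb9. With the shorter length the level of Serpinb6a would be higher. It could then pass Serpinb6b and Serpinb9 in naive cells and in both SGC0946 groups. The ranks below, the top places included, therefore depend on this choice. In naive cells Serpinb9 (7.93 ± 0.304, SD, n = 3) and Serpinb6b (6.12 ± 0.808) led, Serpinb6a followed at 2.88 ± 0.119, and the other 5 members were at 0.507 CPM per kb or less. In YFPpos SGC0649 cells Serpinb6b (57.0 ± 7.35) and Serpinb9 (50.5 ± 10.1) did not differ beyond their spread, and Serpina3g came next at 18.2 ± 1.41 CPM per kb. In YFPneg SGC0649 cells Serpinb9 (31.1 ± 1.09, n = 2), Serpinb6b (22.8 ± 0.886) and Serpina3g (14.5 ± 1.07) led, and Serpinb6a (5.93 ± 1.55), Serpinb5 (5.92 ± 2.53) and Serpina3f (5.33 ± 0.272) did not differ beyond their spread. In YFPneg SGC0946 cells Serpinb6b (29.9 ± 4.19) and Serpinb9 (26.3 ± 3.98) were followed by Serpinb5 (15.5 ± 0.768), ahead of Serpina3g (10.2 ± 3.30). In YFPpos SGC0946 cells the order was Serpinb6b (45.5 ± 3.83), Serpinb9 (30.8 ± 5.39), Serpina3g (27.1 ± 2.13), Serpinb5 (19.6 ± 3.54), Serpinb6a (18.3 ± 0.667), Serpinf1 (14.3 ± 1.76), Serpina3f (14.1 ± 2.50) and Serpinb1a (6.66 ± 0.966). There Serpinb9 and Serpina3g, Serpinb5 and Serpinb6a, and Serpinf1 and Serpina3f were pairs of neighbours within their spread.

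By these exon lengths the makeup of the set shifted with the group. The shares and sums that follow depend on the length used for Serpinb6a. Serpinb6b and Serpinb9 made up 80.2% ± 2.73 (SD, n = 3) of the 8 genes' summed level per length in naive cells, 61.5% ± 2.97 (n = 2) in YFPneg SGC0649, 69.0% ± 8.34 in YFPpos SGC0649, 53.0% ± 7.43 in YFPneg SGC0946 and 43.3% ± 5.09 in YFPpos SGC0946. The YFPpos SGC0946 range, 37.4% to 46.4%, lay below that of YFPpos SGC0649, 62.8% to 78.5%. The sum itself was 155 ± 9.17 CPM per kb in YFPpos SGC0649 and 176 ± 4.42 in YFPpos SGC0946, against 17.5 ± 0.778 in naive cells.

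**Figure D2:**
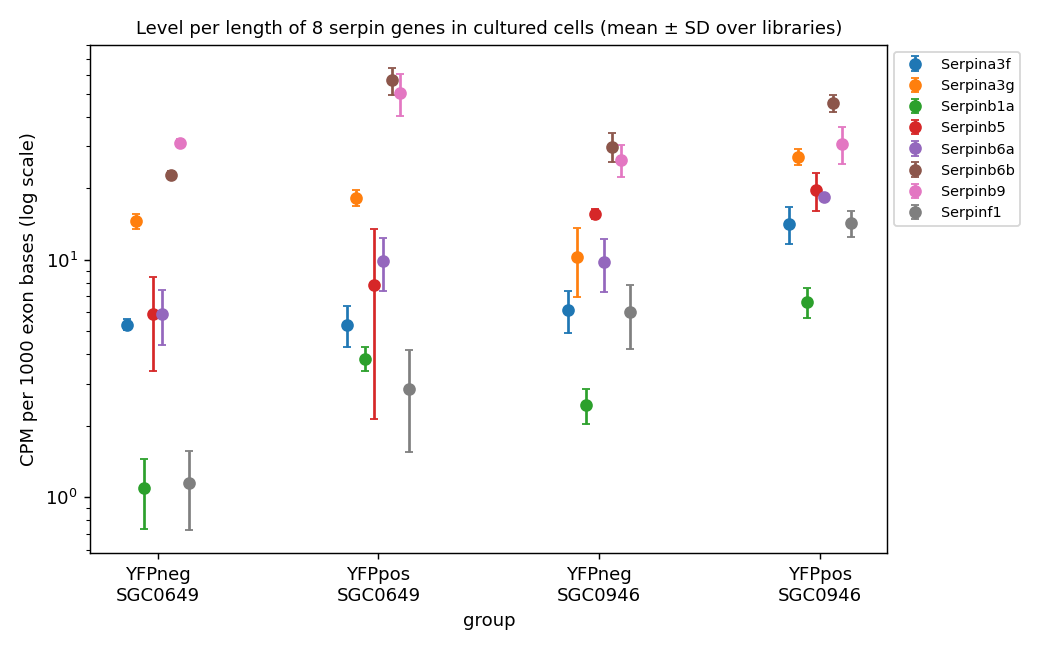
CPM per 1000 exon bases (log scale) of the 8 genes in the 4 cultured groups, as mean ± SD over 2 or 3 libraries. By these exon lengths Serpinb6b and Serpinb9 hold the top places in all 4 groups, and the gap to the other 6 genes is smallest in YFPpos SGC0946. The place of Serpinb6a, and with it the top places in the SGC0946 groups, depends on the length used for Serpinb6a.

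Against naive cells, all 8 members were higher in all 4 cultured groups by edgeR's quasi-likelihood test with Benjamini-Hochberg adjustment over 12343 genes (threshold 0.05), and every cultured library lay above all naive libraries. The share of all tested genes called higher was 42.6% in YFPpos SGC0649, 36.4% in YFPneg SGC0649, 42.2% in YFPpos SGC0946 and 38.6% in YFPneg SGC0946, and the share whose libraries all lay above the naive ones was 45.8%, 41.1%, 45.8% and 36.5%. As the genes were chosen with these levels known, nothing is read from 8 of 8. The median log2 fold change of the 8 was 6.00, 5.04, 6.80 and 5.37 in these groups, beside 0.09, 0.03, 0.05 and 0.05 over all tested genes. All 4 comparisons share the naive libraries. The naive group differed from the cultures in culture, stimulation, compound and starting population together, and these cannot be told apart. In bulk libraries, moreover, a change in the share of cells that express a gene and a change in RNA per cell cannot be told apart.

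The smallest increases were those of genes already read in naive cells. Serpinb6a was 2.06-fold higher in YFPneg SGC0649 (log2 fold change 1.04 ± 0.21, SE) and 6.34-fold higher in YFPpos SGC0946 (2.67 ± 0.19). Serpinb9 ranged from 3.32-fold in YFPneg SGC0946 to 6.37-fold in YFPpos SGC0649, and Serpinb6b from 3.73-fold in YFPneg SGC0649 to 9.33-fold in YFPpos SGC0649. Serpina3g was 20.1-fold to 53.0-fold higher. Serpina3f was 116-fold to 307-fold higher, on 5 naive counts in all, and naive replicate 3 set the size: without it the log2 fold change in YFPpos SGC0649 was 8.38 instead of 6.85 (95% interval 5.99 to 7.72), and in YFPpos SGC0946 9.79 instead of 8.26 (7.47 to 9.06). In YFPneg cells it was 8.38 instead of 6.86 with SGC0649 and 8.59 instead of 7.06 with SGC0946. For Serpinb1a, with 3 naive counts, the count ratio to naive ran from 42.0 in YFPneg SGC0649 (95% counting interval 14 to 207) to 262 in YFPpos SGC0946 (89.4 to 1272). Against a floor of 3 counts over the 3 naive libraries, Serpinb5 was at least 274-fold higher in YFPneg SGC0649, 359-fold in YFPpos SGC0649, 719-fold in YFPneg SGC0946 and 894-fold in YFPpos SGC0946. By the same floor Serpinf1 was at least 45.5-fold, 112-fold, 243-fold and 562-fold higher. The Serpinb1a intervals and the floors cover counting error only, whereas the Serpina3f intervals come from the fit and include the spread between libraries.

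YFPpos and YFPneg cells of the same compound were compared to see which serpins differ with expression of the interferon-gamma reporter. With SGC0649, 5 members were higher in YFPpos cells, Serpinb1a, Serpinb6b, Serpinf1, Serpinb6a and Serpinb9, and none was lower (23.9% of tested genes were called higher). Serpinb1a was 3.51-fold higher (log2 1.81 ± 0.26, adjusted p = 2.9e-05), Serpinb6b 2.50-fold (1.32 ± 0.13, adjusted p = 3.8e-07) and Serpinb9 1.63-fold (0.70 ± 0.15, adjusted p = 0.0014), each without overlap between the groups (35.0% of tested genes were higher without overlap). Serpinf1 was 2.48-fold higher (1.31 ± 0.39, adjusted p = 0.014), with overlap: YFPpos replicate 3 at 3.33 CPM was below YFPneg replicate 1 at 3.40. Serpinb6a was 1.66-fold higher (0.73 ± 0.21, adjusted p = 0.0082). The calls of Serpinf1 and Serpinb6a rested on single libraries: without YFPneg SGC0649 replicate 2 their adjusted p was 0.14 each, and that of Serpinf1 was 0.054 without YFPpos SGC0649 replicate 1 and 0.068 by limma-voom. Over all alternatives the adjusted p ran from 0.00073 to 0.14 for Serpinf1 and from 0.0011 to 0.14 for Serpinb6a.

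The 3 members not called with SGC0649 were Serpina3f (log2 fold change of -0.00, 95% interval -0.47 to 0.46), Serpina3g (0.33, -0.07 to 0.72, adjusted p = 0.16) and Serpinb5 (0.40, -0.65 to 1.44, adjusted p = 0.54). Their intervals allow changes in either direction for Serpina3f and Serpinb5. For Serpinb5, YFPpos SGC0649 replicate 3 decided the outcome: without it the log2 fold change was 0.86 (adjusted p = 0.014), over a range of 0.014 to 0.99 across alternatives. Serpina3g, whose 3 YFPpos libraries were above both YFPneg libraries, was called without YFPneg SGC0946 replicate 3 (adjusted p = 0.030, over a range of 0.030 to 0.43).

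With SGC0946, 6 members were higher in YFPpos cells and none lower (26.9% of tested genes were called higher). Serpinb1a was 2.74-fold higher (log2 1.46 ± 0.21, adjusted p = 1.7e-05), Serpina3g 2.63-fold (1.40 ± 0.17, adjusted p = 2.9e-06), Serpinf1 2.36-fold (1.24 ± 0.28, adjusted p = 0.0018) and Serpina3f 2.30-fold (1.20 ± 0.19, adjusted p = 5.3e-05). Serpinb6a was 1.87-fold higher (0.91 ± 0.18, adjusted p = 0.00036) and Serpinb6b 1.52-fold (0.61 ± 0.11, adjusted p = 0.00017). For these 6 the YFPpos and YFPneg libraries did not overlap (30.4% of tested genes were higher without overlap), and each call held under all 20 alternatives. Serpinb9 was not called (0.23, 95% interval -0.06 to 0.51, adjusted p = 0.18), except without YFPpos SGC0946 replicate 2 (0.36, adjusted p = 0.029, over a range of 0.029 to 0.54). Serpinb5 was not called either (0.33, -0.53 to 1.20, adjusted p = 0.51), although its 3 YFPpos libraries lay above the 3 YFPneg ones, except when only the compared groups entered the fit (adjusted p = 0.049, over a range of 0.049 to 0.78). YFPneg libraries also had fewer unmapped reads (3.14% to 4.62%) than YFPpos libraries (6.44% to 8.35%, apart from 3.61% in YFPpos SGC0946 replicate 2).

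Markers of other cells also differed between the sorts. With SGC0946, NK cell markers summed to 0.874 to 3.53 CPM in YFPneg and 11.3 to 12.7 in YFPpos cells, neutrophil and mast cell markers to 1.19 to 4.97 and 5.77 to 7.59, dendritic cell markers to 1.06 to 2.56 and 3.34 to 4.22, and B cell markers to 0.0697 to 2.24 and 2.70 to 3.16. Those 4 lists were higher in YFPpos cells without overlap, whereas the 2 CD8 T cell markers (12.2 to 19.7 and 5.82 to 6.63 CPM) and the 6 epithelial markers (3.42 to 10.4 and 2.13 to 2.46) were higher in YFPneg cells. With SGC0649 the same 6 lists differed in the same directions without overlap: NK cell markers summed to 0.617 to 1.07 CPM in YFPneg and 3.44 to 7.42 in YFPpos cells, neutrophil and mast cell markers to 0.308 to 0.762 and 1.43 to 3.65, and dendritic cell markers to 1.83 to 2.57 and 3.78 to 5.88. There B cell markers summed to 0.308 to 0.711 and 0.998 to 1.38 CPM, CD8 T cell markers to 6.5 to 9.51 and 4.76 to 6.41, and epithelial markers to 2.24 to 5.60 and 0.998 to 1.69. The CD4 T cell markers were lower in YFPpos cells without overlap. They summed to 3342 to 3534 CPM in YFPneg and 2860 to 3331 in YFPpos cells with SGC0649. With SGC0946 the sums were 3736 to 3756 and 3291 to 3418 CPM. The defining NK gene Ncr1 had at most 4 counts in any cultured group and S100a8 had 0. The part of other cells and of mapping in the sort differences was not tested.

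**Figure D3:**
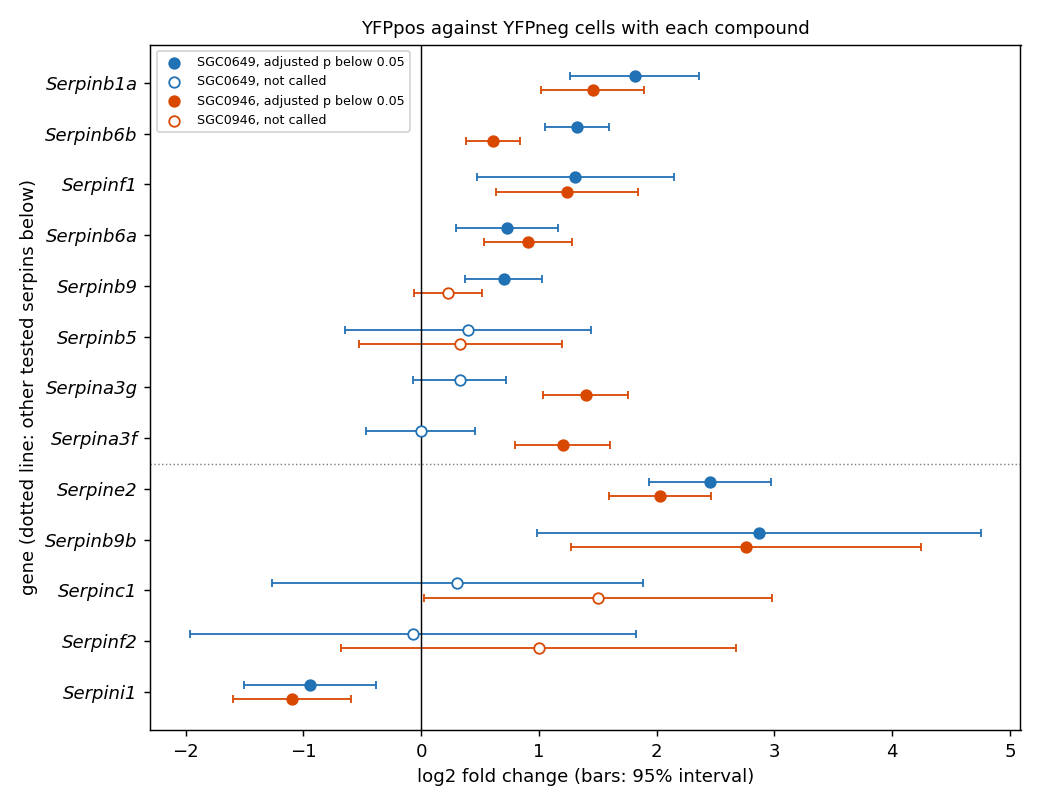
Log2 fold change of YFPpos against YFPneg cells (horizontal axis) with each compound, for the 8 members and, under the dotted line, 5 other tested serpins. Bars are 95% intervals not adjusted for the number of genes, and filled points passed the adjusted threshold. Serpina3g and Serpina3f are filled with SGC0946 only, at 1.40 and 1.20, and Serpinb9 with SGC0649 only, at 0.70.

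The compounds were compared at the same dose of 1 µM and the same 4 days, separately in YFPpos and YFPneg cells, 2 comparisons in all. In YFPpos cells all 8 members were called (27.7% of tested genes were), 6 higher and 2 lower with SGC0946 (12.1% and 15.7% of tested genes). Serpinf1 had the largest difference, 5.01-fold higher (log2 2.32 ± 0.30, adjusted p = 7.5e-05), followed by Serpina3f at 2.65-fold (1.41 ± 0.19, adjusted p = 7.2e-05), Serpinb6a at 1.86-fold (0.90 ± 0.17, adjusted p = 0.0014) and Serpinb1a at 1.74-fold (0.80 ± 0.20, adjusted p = 0.0067). Serpinb9 fell to 0.61 of its SGC0649 level (-0.71 ± 0.13, adjusted p = 0.0011). For all 8 members the 3 libraries of one compound lay on one side of the 3 of the other, which held for 57.2% of tested genes. The calls of Serpinf1, Serpina3f, Serpinb6a, Serpinb1a and Serpinb9 held under every alternative.

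The other 3 calls in YFPpos cells were less steady. Serpinb5 was 2.51-fold higher with SGC0946 (log2 1.33 ± 0.41, adjusted p = 0.027). Its adjusted p was 0.066 without YFPpos SGC0649 replicate 2, 0.055 without YFPpos SGC0946 replicate 1, 0.098 without YFPpos SGC0946 replicate 2, 0.054 when only the compared groups entered the fit and 0.082 by DESeq2, over a range of 0.0026 to 0.098. Serpina3g was 1.49-fold higher (0.57 ± 0.16, adjusted p = 0.015), and 0.068, 0.054 and 0.059 were its adjusted p-values without YFPpos SGC0649 replicate 3, YFPpos SGC0946 replicate 1 and YFPpos SGC0946 replicate 2 (range 0.00055 to 0.068). Serpinb6b was 1.25-fold lower (-0.32 ± 0.11, adjusted p = 0.032). That call was lost without YFPpos SGC0649 replicate 3 (adjusted p = 0.20), YFPpos SGC0946 replicate 2 (0.14) or YFPpos SGC0946 replicate 3 (0.077), with DESeq2 size factors (0.064) and by DESeq2 (0.057), over a range of 0.012 to 0.20. The direction of all 3 was the same under every alternative.

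Some genes that mark other cells moved with the compounds in YFPpos cells. The 5 NK cell markers summed to 3.44 to 7.42 CPM with SGC0649 and 11.3 to 12.7 with SGC0946, mostly Klre1 (2.52 and 6.89), while the defining gene Ncr1 had 4 and 0 counts. The 9 neutrophil and mast cell markers summed to 1.43 to 3.65 and 5.77 to 7.59 CPM, mostly Cxcr2 (1.75 and 6.13), with S100a8 at 0 counts in every library. Monocyte and macrophage markers (7 rows) summed to 0.476 to 2.0 and 5.25 to 6.45 CPM, with Csf1r at 4 and 0 counts. B cell markers summed to 0.998 to 1.38 and 2.70 to 3.16 CPM. For Serpinb5, the 6 epithelial markers summed to 0.998 to 1.69 and 2.13 to 2.46 CPM, also higher with SGC0946. Of these markers 4 had a count with SGC0649 and 3 with SGC0946, and 1 was at 1 CPM or more with each compound. The keratins Krt5 and Krt14 were at 0 counts in every library. For Serpinf1, the 6 stromal markers summed to 1.34 to 2.0 and 2.31 to 2.34 CPM, with Col1a1 at 1.58 and 1.89. The 7 CD4 T cell markers with a row summed to 2860 to 3331 and 3291 to 3418 CPM. The part of other cells in the compound differences was not tested.

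In YFPneg cells 3 members were higher with SGC0946 and none lower (4.99% of tested genes were called higher and 8.63% in either direction). Serpinf1 was 5.26-fold higher (log2 2.39 ± 0.39, adjusted p = 0.0029), a call that held under every alternative. Serpinb1a was 2.23-fold higher (1.16 ± 0.26, adjusted p = 0.015), with an adjusted p of 0.11 without YFPneg SGC0649 replicate 1 and 0.25 when only the compared groups entered the fit (range 0.00095 to 0.25). Serpinb6a was 1.65-fold higher (0.72 ± 0.21, adjusted p = 0.040) with overlapping groups, YFPneg SGC0946 replicate 3 at 37.4 CPM lying below YFPneg SGC0649 replicate 1 at 38.0. That call was lost in 12 of 20 alternatives, among them leaving out YFPneg SGC0649 replicate 2 (0.48, adjusted p = 0.30), YFPneg SGC0946 replicate 1 (0.093) or replicate 2 (0.088), each naive library, YFPpos SGC0649 replicate 2 and each YFPpos SGC0946 library, over a range of 0.0050 to 0.30.

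Markers of other cells differed between compounds in YFPneg cells as well. CD8 T cell markers summed to 6.5 to 9.51 CPM with SGC0649 and 12.2 to 19.7 with SGC0946, monocyte and macrophage markers to 0.411 to 1.93 and 2.09 to 6.2, and neutrophil and mast cell markers to 0.308 to 0.762 and 1.19 to 4.97, each without overlap. NK cell, B cell, dendritic, stromal and epithelial lists overlapped. CD4 T cell markers summed to 3342 to 3534 CPM with SGC0649 and 3736 to 3756 with SGC0946, also without overlap. The defining genes Csf1r (1 and 0 counts) and S100a8 (0 counts) were at or near 0, and Cd8a was at 0.435 and 1.26 CPM. The part of these cells in the differences was not tested.

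The other 5 members were not called in YFPneg cells. Serpinb5 had a log2 fold change of 1.39 (95% interval 0.34 to 2.45, adjusted p = 0.089), close to its 1.33 in YFPpos cells. Serpinb5 passed the threshold without YFPpos SGC0649 replicate 1 (adjusted p = 0.049) or replicate 3 (0.0029), without the filter on low counts (0.030) and when only the compared groups were fitted (0.00075), over a range of 0.00075 to 0.38. Serpinb6b was at 0.39 (0.12 to 0.66, adjusted p = 0.064), and passed without the low-count filter (0.032), by DESeq2 (0.033) and without YFPneg SGC0946 replicate 2 (0.026) or YFPpos SGC0649 replicate 3 (0.043), over a range of 0.026 to 0.25. Serpina3g was at -0.49 (-0.89 to -0.09, adjusted p = 0.11), with no overlap between groups, and passed without YFPneg SGC0946 replicate 1 (-0.73, adjusted p = 0.022, range 0.022 to 0.33). The share of all tested genes without overlap in this comparison is not given here. Serpina3f was at 0.20 (-0.26 to 0.67) and Serpinb9 at -0.24 (-0.56 to 0.08).

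**Figure D4:**
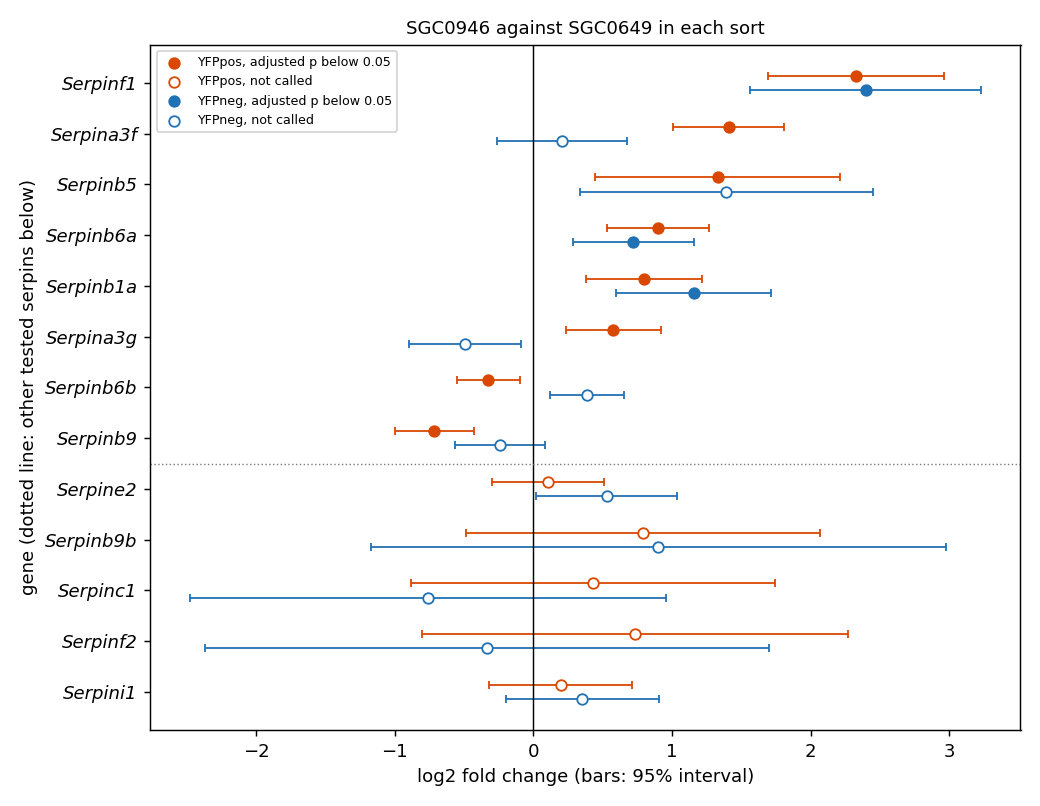
Log2 fold change of SGC0946 against SGC0649 (horizontal axis) in YFPpos and YFPneg cells, for the 8 members in order of the YFPpos value and, under the dotted line, 5 other tested serpins. Bars are 95% intervals not adjusted for the number of genes, and filled points passed the adjusted threshold. Serpinf1 lies at 2.32 and 2.39, Serpina3g and Serpinb6b lie on opposite sides of 0 in the 2 sorts.

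Whether the compound difference itself differed between YFPpos and YFPneg cells was tested as an interaction. Serpina3g (1.07 ± 0.25, adjusted p = 0.048) and Serpinb6b (-0.71 ± 0.17, adjusted p = 0.046) were called, 1 higher and 1 lower, where 0.259% and 0.891% of tested genes were. Serpina3g was thus higher with SGC0946 in YFPpos cells by 0.57 and lower by 0.49 in YFPneg cells on the log2 scale, and Serpinb6b went the other way, at -0.32 and 0.39. Both adjusted p-values lay just under the threshold and ranged from 0.0054 to 0.16 for Serpina3g and from 0.012 to 0.13 for Serpinb6b over the alternatives. Serpina3g kept its call in 7 of 20 alternatives and Serpinb6b in 6, and leaving out any 1 of the 14 libraries ended at least 1 of the 2 calls. Serpina3f had a difference of similar size that was not called (1.20 ± 0.29, adjusted p = 0.056, range 0.0039 to 0.16). The differences for Serpinf1 (-0.07, 95% interval -1.08 to 0.94), Serpinb5 (-0.06, -1.41 to 1.28) and Serpinb6a (0.18, -0.39 to 0.74) were near 0, with wide intervals. Serpinb9 (-0.48, -0.91 to -0.04, adjusted p = 0.32) and Serpinb1a (-0.36, -1.05 to 0.34) were not called.

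In several groups a single library was the highest or lowest for most members. Within YFPpos SGC0649, replicate 3 was the lowest for 6 members, Serpina3f, Serpina3g, Serpinb1a, Serpinb5, Serpinb6a and Serpinf1, and the highest for the other 2, Serpinb6b and Serpinb9. The 6 are those higher with SGC0946 in YFPpos cells and the 2 those lower. That match is partly built in, because this library is 1 of the 3 SGC0649 libraries in that comparison. The ratio of Serpinb9 to Serpinb5 per length was 34.3 in that library and 3.47 and 5.17 in replicates 1 and 2, against 1.83, 1.04 and 2.03 in YFPpos SGC0946. Within YFPpos SGC0946, replicate 2 was the highest for Serpina3f, Serpinb5, Serpinb6a and Serpinf1 and the lowest for Serpinb6b and Serpinb9. Other libraries also stood at one end for many members. YFPneg SGC0649 replicate 1 was the higher library for 7, and YFPpos SGC0649 replicate 1 was the highest for 6. Replicate 3 of YFPneg SGC0946 and replicate 3 of YFPpos SGC0946 were each the lowest for 5. How often any library was lowest or highest over all tested genes was not counted, so nothing is read from these counts. Without YFPpos SGC0649 replicate 3, 1886 genes were called between the compounds in YFPpos cells, and 2004 without YFPpos SGC0946 replicate 2, against 3424 with all libraries. YFPpos SGC0946 replicate 2 also had fewer unmapped reads (3.61%) than the other 5 YFPpos libraries (6.44% to 8.35%). Whether this goes with the order of the members was not tested.

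Across the 11 cultured libraries the Pearson correlation of log2 CPM between members ran from -0.66 (Serpinb5 with Serpinb9) to 0.93 (Serpinb6a with Serpinf1), with a median of 0.57 over 28 pairs. Serpinb9 was positively correlated with Serpinb6b (0.72) and negatively with Serpinf1 (-0.42) and Serpina3f (-0.40). Serpina3f and Serpina3g, neighbours with similar promoters, were at 0.72. These values describe 11 libraries that share 4 groups and are mostly differences between those groups. Over all 14 libraries, the genes with the most similar profiles were Mgll, Emp1 and Car5b for Serpinf1, Ier5l, Flot1 and Mgarp for Serpinb5, Fbxo44, Ctla4 and Ptpn5 for Serpina3f, and Mapkapk2, Phf19 and Il2ra for Serpina3g, with Pearson r from 0.988 to 0.995 over all 8 members. For the others they were Ppat, Gspt1 and Nup155 (Serpinb9), Ghitm, Pfdn1 and Tcp1 (Serpinb6b), Mt2, Ckb and Cdkn2d (Serpinb6a), and Hacd1, Nlgn2 and Soat2 (Serpinb1a). Such r values rest largely on the gap between naive and cultured libraries.

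Of the 54 other serpin rows, 6 passed the filter on low counts, and of the 48 that did not, 34 had no read in any library, 11 had 1 to 10 reads and 3 had more. Serpine2, an extracellular inhibitor of thrombin and plasminogen activators, was the most abundant of the 5 described here in the cultured groups but not in naive cells. It was at 0.973 ± 0.118 CPM (SD, n = 3) in naive cells, 31.5 ± 7.33 (n = 2) and 45.2 ± 18.9 in YFPneg cells with SGC0649 and SGC0946, and 173 ± 28.3 and 186 ± 21.3 in YFPpos cells. Serpine2 was higher in YFPpos than YFPneg cells with both compounds (log2 2.45 ± 0.25 and 2.03 ± 0.21). It was not called between compounds in YFPpos cells (0.10, 95% interval -0.30 to 0.51), an interval that leaves out the 0.90 of Serpinb6a and the 2.32 of Serpinf1. In YFPneg cells Serpine2 was not called either (0.53, 0.02 to 1.04), and that interval holds the 0.72 of Serpinb6a there. The other 4 described here, Serpinb9b, Serpinc1, Serpinf2 and Serpini1, were not called between compounds in either sort.

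Serpini1, or neuroserpin, and Serpinf2, an inhibitor of plasmin, were lower in all 4 cultured groups than in naive cells. The Serpinf2 calls in YFPneg SGC0649 and YFPpos SGC0946 were lost without naive replicate 3 (adjusted p up to 0.086 and 0.098), and the first also without YFPneg SGC0649 replicate 2. Serpini1 was at 11.5 ± 0.149 CPM in naive cells and at 2.49 ± 0.932 and 2.86 ± 0.148 in YFPpos cells with SGC0649 and SGC0946. Serpinb9b, next to Serpinb9 with 9458 bases between them, was at 2.83 ± 1.28 and 4.91 ± 0.979 CPM in the YFPpos groups and at 0.381 ± 0.539 and 0.680 ± 0.828 in the YFPneg groups. It was called higher in YFPpos cells with both compounds, with SGC0649 (2.87 ± 0.89, adjusted p = 0.015, range 0.0023 to 0.12) and with SGC0946 (2.76 ± 0.70, adjusted p = 0.0033). The first call was lost by DESeq2 and without YFPneg SGC0649 replicate 2. Serpinc1, or antithrombin, was at 1.12 CPM or less in each group's mean and was called in no comparison with all libraries by edgeR's test.

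Proteases were counted from a list of 26 genes, 19 of which passed the filter. Being on the list does not mean that a serpin inhibits the protease. With SGC0946 in YFPpos cells 7 were higher, 2 lower and 10 not called (12.1% of tested genes were called higher and 15.7% lower). The median log2 fold change of the 19 was 0.35, beside -0.04 over all tested genes. Ctsd and Ctsl, both lysosomal cathepsins, were higher by 1.01 (adjusted p = 2.3e-05) and 1.42 (adjusted p = 0.00083), and Ctss, another, was lower by 0.63 in size (-0.63, adjusted p = 2.9e-05). Gzmb, the granzyme that Serpinb9 inhibits, was at 1.60 ± 1.13 CPM in naive cells, 1694 ± 11.4 and 2434 ± 174 in YFPneg cells with SGC0649 and SGC0946, and 3610 ± 124 and 4921 ± 233 in YFPpos cells. Gzmb was higher with SGC0946 in YFPpos cells (0.45, adjusted p = 0.0059), where Serpinb9 was lower. In YFPneg cells 2 proteases, Gzmb (0.52) and Ctsb (0.33), were higher and 1, Gzmm (-1.99), was lower, and all 3 calls were lost without YFPneg SGC0649 replicate 2. Of all tested genes 4.99% were called higher there and 8.63% in either direction. Over the alternatives the adjusted p reached 0.096 for Gzmb and 0.40 for Gzmm, both also lost without YFPneg SGC0649 replicate 1, and 0.19 for Ctsb, also lost without YFPneg SGC0946 replicate 1. YFPpos cells had 7 proteases higher and 4 lower than YFPneg cells with SGC0649, and 9 and 2 with SGC0946. Of all 12343 tested genes, 2955 were called higher and 2630 lower with SGC0649, and 3321 and 3431 with SGC0946. Gzmb was higher by 1.09 and 1.02 and Ctss lower, at -1.50 and -1.96.

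Of 18 listed protease inhibitors that are not serpins, 12 passed the filter. With SGC0946, 3 were higher in YFPpos cells and the same 3 in YFPneg cells, none lower: Cst7, the cystatin that acts on cathepsins in cytotoxic cells (0.69 and 0.58), Timp3, an inhibitor of metalloproteinases (1.33 and 3.14), and Spint2, a Kunitz-type inhibitor (0.25 and 0.41). Of all tested genes, 12.1% were called higher in YFPpos cells and 4.99% in YFPneg cells. The 3.14 of Timp3 rests on few counts, 7 over the YFPneg SGC0649 libraries and 81 over the YFPneg SGC0946 libraries. In YFPneg cells the calls of Timp3 (adjusted p = 0.18) and Spint2 (0.076) were lost when only the compared groups entered the fit. The Cst7 call there was lost without YFPneg SGC0649 replicate 2 or YFPneg SGC0946 replicate 1 (adjusted p up to 0.18), and in YFPpos cells that of Spint2 without YFPpos SGC0946 replicate 2 (0.060). Cst7 was at 76.2 ± 11.2 and 123 ± 5.03 CPM in YFPpos cells with SGC0649 and SGC0946. Against YFPneg cells, YFPpos cells had 6 of the 12 higher and 4 lower with each compound. The calls over all tested genes are those given beside the proteases.

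Genes next to the members were tested to see whether they changed alongside. Vps4b next to Serpinb5, Bphl next to Serpinb6a and Smyd4 next to Serpinf1 were not called between compounds in either sort, and Wrnip1 next to Serpinb1a was lower with SGC0946 in YFPpos cells (log2 -0.29 ± 0.06, adjusted p = 0.0031). On the plus strand, Nqo2 and Ripk1 overlap Serpinb6a, and reads were counted by strand according to the name of the deposited table. Nqo2, a quinone reductase, was 1.08 ± 0.16 higher with SGC0946 in YFPpos cells (adjusted p = 0.00020), beside 0.90 for Serpinb6a, and 1.24 higher in YFPpos than YFPneg cells with SGC0946, beside 0.91. Against naive cells Nqo2 was lower in 3 cultured groups (log2 -0.99 in YFPneg SGC0649, -0.66 in YFPneg SGC0946 and -0.49 in YFPpos SGC0649) and higher in YFPpos SGC0946 (0.58, adjusted p = 0.0034), whereas Serpinb6a was higher in all 4. The call in YFPpos SGC0649 was lost without naive replicate 2 or YFPpos SGC0649 replicate 3. Ripk1, a kinase of cell death signalling, was also higher with SGC0946 in YFPpos cells (0.27, adjusted p = 0.0089), a call lost without YFPpos SGC0946 replicate 2 (range 0.00046 to 0.059). Whether reads of one gene were counted for the other was not tested.

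Library totals ran from 14486577 to 31614057 counts, lowest in YFPneg SGC0946 replicate 3 and highest in YFPpos SGC0946 replicate 3, and 57.2% to 65.2% of reads were assigned to genes. No 2 libraries held identical counts. The CD4 T cell markers with a row, among them Cd3e and Cd4, were all at 1 CPM or more in each group and summed to 2860 to 4664 CPM, highest in naive cells.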

How the data were processed

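RNA of 14 libraries was sequenced, and the deposited values were whole-number counts per gene for 22048 protein-coding genes, with a second deposited table of read assignment counts. Per the submitters' processing notes, featureCounts, edgeR and limma were used with GRCm38, and the name of the deposited table gives reverse-stranded counting. Neither the aligner nor the annotation release used upstream is given in the sources used here. From these counts, 12343 genes passed edgeR's filterByExpr by group, were scaled by TMM and fitted with 1 coefficient per group over all 14 libraries by the quasi-likelihood test (edgeR 4.0.16, R 4.3.3). P-values were adjusted by Benjamini-Hochberg over all tested genes in each of 9 comparisons, with a threshold of 0.05. Each standard error was obtained as |log2 fold change| over the root of the F statistic. Values for genes at 0 in a group used a floor of 3 counts over that group. The alternatives were DESeq2 size factors, no filter, DESeq2 (1.42.0), limma-voom (3.58.1), only the compared groups, a replicate block and leaving out each library. The steps were tested on simulated data. Positions came from GENCODE and promoter windows from RefSeq, aligned with Biopython 1.88, and figures were drawn with matplotlib 3.10.9. The members and lists were chosen with earlier results of these data known. The text names all 8 members, 5 of the other tested serpins (the results of 1 are not reported here), up to 4 genes per list and comparison by smallest p, and the 3 genes most correlated with each member (prior count of 2). Neighbouring genes were added after the values had been seen.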

Additional observations from a re-analysis of the deposited data

Results flagged for a closer look

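With all libraries, the SGC0946 difference was called as dependent on the sort for 2 members. The test was of the difference itself, the interaction in edgeR's quasi-likelihood test. For Serpina3g the log2 difference between compounds was 1.07 higher in YFPpos than in YFPneg cells (SE 0.25, adjusted p = 0.048, range 0.0054 to 0.16 over the alternatives). For Serpinb6b the same quantity had the opposite sign, at -0.71 (SE 0.17, adjusted p = 0.046, range 0.012 to 0.13). The 3 YFPneg SGC0946 libraries of Serpina3g lay below both YFPneg SGC0649 libraries, and the 3 YFPpos SGC0946 libraries above all YFPpos SGC0649 libraries. For Serpinb6b the order was the reverse in both sorts. These are the same values that gave the calls and add no support to them. In YFPpos cells the libraries of the compounds did not overlap for 57.2% of all tested genes. The share in YFPneg cells is not given here. Only 2 libraries stand for YFPneg SGC0649, and leaving out either one ended both calls. Both were also lost without naive replicate 1 or 2, and without any YFPpos SGC0946 library. The same held when only the compared groups entered the fit. Serpina3g kept its call in 7 of 20 alternatives and Serpinb6b in 6.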

How the results depend on the processing

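Over 72 member results (8 genes in 9 comparisons) and 20 alternatives, 1342 of 1440 values kept their direction and their side of the threshold, 58 lost a call, 21 gained one and 19 changed sign. The 8 calls against naive cells held in all 4 comparisons under every alternative. With 1 library left out, the members called ranged from 3 to 6 for YFPpos against YFPneg with SGC0649, 6 to 7 with SGC0946, 5 to 8 for the compounds in YFPpos cells (1886 to 4565 of all genes), 2 to 5 in YFPneg cells (335 to 1520) and 0 to 2 for the interaction (61 to 241). Lone libraries were assumed to vary like the other groups.

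Between compounds in YFPneg cells, 5 members were called without the low-count filter instead of 3, and of all genes 1615 by DESeq2 and 236 with only the compared groups, instead of 1065. For the interaction, 1 member was called with DESeq2 size factors and 0 with only the compared groups, instead of 2, and of all genes 301 by DESeq2 and 57 with only the compared groups, instead of 142; the cause was not tested. DESeq2 size factors moved the median of all genes by at most 0.049 (log2).

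The changes of sign were all in uncalled values. Serpina3f in YFPpos against YFPneg with SGC0649 was at 0.0056 with DESeq2 size factors, 0.0059 by DESeq2, 0.12 with the replicate block and -0.13 to 0.13 with 1 library left out. Serpinb5 there ranged from -0.21 to 0.92 with 1 library left out. For the interaction, limma-voom gave 0.27 for Serpinb5 and 0.04 for Serpinf1, and leaving out 1 library gave -0.59 to 0.54 for Serpinb5, -0.51 to 0.26 for Serpinf1 and -0.12 to 0.42 for Serpinb6a.

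Whether the replicate numbers pair the libraries is not stated and was not settled here, and the main tests used no block. Deviations from the group mean correlated weakly but positively between same-numbered libraries, at 0.036 to 0.215. Across sorts of a compound and across compounds of a sort, most libraries correlated best with their own number. The exceptions were YFPneg SGC0649 replicate 2, best with YFPpos SGC0649 replicate 3, and YFPpos SGC0649 replicate 1, best with YFPpos SGC0946 replicate 2. With the replicate block, 8 members were called in each comparison with naive cells, 6 between the sorts with SGC0649 (Serpina3g added, 0.43, edgeR adjusted p = 0.042), 6 with SGC0946, 8 between compounds in YFPpos cells, 4 in YFPneg cells (Serpinb5 added, 1.70, 0.027) and 2 for the interaction, where Serpina3f (1.09, 0.038) was called and Serpinb6b (-0.67, 0.052) was not. All genes called with the block numbered 5436, 6796, 3516, 1272 and 129 in the last 5 comparisons.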
